A study of Homo sapiens with 9 samples.

Results

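The vector control cells of SNU-398, a human hepatocellular carcinoma (HCC) cell line, were described as they were before EMX1 was raised. They made up 3 of the 9 RNA-seq libraries of the study and were chosen by their label, overexpression control, with no measured value used. The other 6 libraries came from SNU-398 cells that overexpressed the full-length EMX1 isoform or its alternative isoform, and they entered no value given here. The other groups were labelled EMX1-FL and EMX1-X1. The vector control was given the genotype wild type, and all 3 groups shared the lentiviral infection, the selection with puromycin and the culture in RPMI1640 with fetal bovine serum and antibiotics. Total RNA was extracted with TRIZOL, made into libraries with the NEBNext Ultra kit and sequenced on an Illumina NovaSeq instrument. The cells were a stable, drug-selected population of a single line, so the values describe that population and not HCC at large, and the labels do not say whether the 3 libraries came from separate cultures, so the spread between them may be technical. In bulk RNA, fewer cells with a transcript and less of that transcript per cell cannot be told apart.

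Hepatocytes are the epithelial cells of the liver, and they make most plasma proteins under a small circuit of transcription factors led by HNF4A. In HCC this program can be lost to different degrees, fetal genes such as AFP can return, and the cells can exchange epithelial adhesion for a mesenchymal cytoskeleton and matrix, a change known as the epithelial to mesenchymal transition (EMT). The beta-catenin branch of WNT signalling, in which AXIN2 is a feedback inhibitor and a direct target, is among the pathways most often altered in HCC. Levels are given as TPM, the length-scaled share of each gene in all transcripts of a library. Counts are divided by gene length, so that different genes can be set side by side. The length is that of all annotated exons of a gene together, whichever transcript the cells made. Levels of different genes, their ranks and their ratios are therefore approximate. A gene was taken as expressed at 1 TPM or more in each of the 3 libraries.

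The 5 genes that served to check the label ranged from no count for AFP to rank 47 for VIM, with A2M and CDH1 between. AFP, the fetal serum protein used as a serum marker of HCC, lies at chr4:73431138-73456174 of GRCh38 and had 0, 0 and 0 counts in vector control 1, 2 and 3, where 3 counts in each library would be 0.14 TPM on average. A2M, a protease inhibitor of plasma at chr12:9067664-9116229, was at 28.9, 39.98 and 39.7 TPM, and the first library was the lowest. Both genes belong to liver, and in these cells they differed. VIM, the intermediate filament of mesenchymal cells at chr10:17228241-17237593, was at 703, 872 and 962 TPM, rank 47 of 19815 nuclear protein-coding genes, and lowest in vector control 1. CDH1, the epithelial cadherin at chr16:68737292-68835541, was at 1.62, 1.07 and 0.903 TPM, so that it crossed the limit of 1 TPM between libraries and did not count as expressed. AXIN2 at chr17:65528563-65561648 was at 393, 401 and 381 TPM, rank 188, and its libraries differed by little. Exons of other genes cover 24.3% of the exon bases of VIM and 25.2% of those of AXIN2, and read pairs over more than 1 gene were not counted. The hepatocyte identity that the tissue of origin gives was nearly absent by its defining genes. HNF4A and TTR had 0 counts in all 3 libraries and ALB was at 0.695, 0.454 and 0.705 TPM, while VIM and AXIN2 were high. Other mesenchymal and beta-catenin genes, given below, ranged from high to near 0.

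The libraries held 23217342, 23132559 and 25197970 counted read pairs, and a gene of the median exon length of 5213.5 bases reached 1 TPM at 32.8 to 38.8 counts. Among expressed genes the median SD of log2(TPM + 1) between libraries was 0.191, against 0.0578 by an approximation for counting alone. Vector control 3 stood apart from the others. Pearson's r of log2(TPM + 1) across 11872 expressed nuclear protein-coding genes was 0.994 between vector control 1 and 2, and 0.976 and 0.981 between these and vector control 3. Genes are not independent replicates, and these values describe agreement only. The difference followed the GC content of transcripts, from a median of -0.63 (log2) in the lowest of 10 classes of GC content to 0.11 in the highest, while vector control 1 and 2 differed by medians of 0.031 to 0.11 in every class. Without vector control 3 the median SD was 0.103. The values of the genes that matter most are therefore given for each library, so that AT-rich genes can be read with and without vector control 3. Which of the libraries lies nearer to the cells was not tested.

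Of 19815 nuclear protein-coding genes, 11872 (59.9%) were expressed, 638 passed 1 TPM in only some libraries, and 3822 had no count in any library. Counts of expressed genes in the lists below are to be read beside the 59.9%. The expressed genes split into 2899 with a mean under 10 TPM, 7553 between 10 and 100 TPM, 1387 between 100 and 1000 TPM and 33 at 1000 TPM or more. Between 930 and 1168 genes held 50% of the nuclear protein-coding transcripts in each library. The translation factors EEF1A1 and EEF2 stood at ranks 1 and 3, at 8691, 8978 and 9793 TPM and at 4251, 4488 and 5265 TPM. Between them was the ribosomal protein gene RPS12, at 7728 TPM on average. The first metabolic gene was SCD, the desaturase that makes monounsaturated fatty acids, at 3266, 3345 and 3467 TPM and rank 4. It was followed by RPLP0, RPS18, ATP5F1B, ACTB, PABPC1 and RPLP1, between 1872 and 3297 TPM. ACTB, the cytoplasmic actin often used as a reference gene, was at 1727, 1826 and 2371 TPM and highest in vector control 3. Of the 100 highest genes, 37 encode cytosolic ribosomal proteins.

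**Figure D1:**
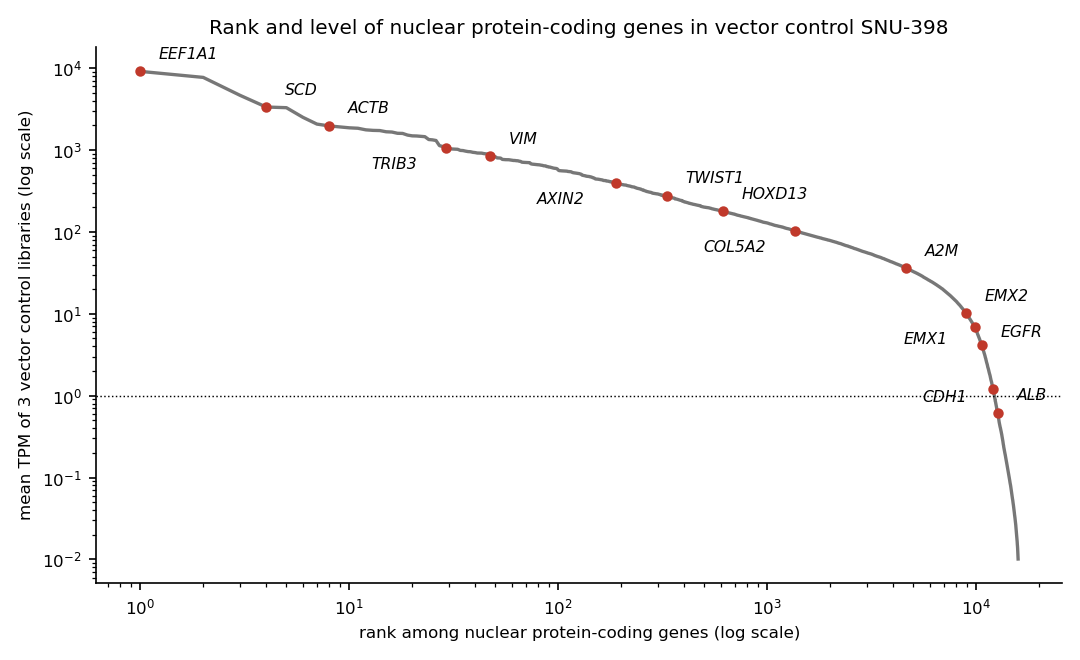
Mean TPM of the 3 vector control libraries (vertical axis, log scale) against rank among nuclear protein-coding genes (horizontal axis, log scale), with a dotted line at 1 TPM. Genes at 0, AFP among them, cannot be drawn on a log axis. VIM (rank 47) and AXIN2 (rank 188) sit far to the left of A2M (rank 4617), EMX1 (rank 9840) and EGFR (rank 10600), and CDH1 lies just above the dotted line and ALB under it.

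Transcripts of the mitochondrial genome took 25.7%, 27.1% and 28.5% of all TPM, mostly from the 13 protein-coding genes (21.3% on average). MT-ND4, a subunit of complex I, was the highest at 36501, 38663 and 37543 TPM. It was followed by MT-RNR2, the large ribosomal RNA, at 30756 TPM, and by the complex IV subunits MT-CO1 and MT-CO2 and the ATP synthase subunit MT-ATP6 at 29170.3, 28262 and 19262 TPM. The header of the count table names no strand option, so that reads of the light-strand gene MT-ND6 and of the opposite strand cannot be told apart there. Among long non-coding RNAs the highest were AC243919.1 at 1135, 1012 and 977 TPM, AC104823.1 at 758, 1082 and 861 TPM, and the snoRNA host genes GAS5, SNHG1 and SNHG29 at 378, 318 and 171 TPM. 

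Expressed and silent genes differed in the base composition before their starts. RefSeq gene starts (GRCh38.p14) were matched by symbol for 15064 nuclear protein-coding genes, and the 250 bases before each start were read. A window was taken as CpG-rich at a GC content of 55% or more and a ratio of observed to expected CpG of 0.6 or more. Of the 8653 CpG-rich windows 83.3% belonged to expressed genes, against 37.6% of the 6411 others. The share of CpG-rich windows was 15.4% among genes with no count in any library and 64.0%, 78.1% and 79.1% among expressed genes with means under 10, from 10 to 100, and from 100 TPM up. Shown are 4 windows, each 5′ to 3′ with CpG in capitals: a silent gene without a CpG-rich window, a silent gene with one, and a pair of expressed genes with one. AFP (chr4:73435971-73436220, + strand) had no count and holds 1 CpG and a TATAAA box. CD44 (chr11:35138921-35139170, + strand), which encodes the hyaluronan receptor, had 2 counts in all although its window is CpG-rich, with 15 CpG. NKD2 (chr5:1008552-1008801, + strand), a feedback inhibitor of WNT signalling, was at 31.6 TPM with 26 CpG, and SCD (chr10:100346983-100347232, + strand) at 3359 TPM with 23 CpG.
AFP: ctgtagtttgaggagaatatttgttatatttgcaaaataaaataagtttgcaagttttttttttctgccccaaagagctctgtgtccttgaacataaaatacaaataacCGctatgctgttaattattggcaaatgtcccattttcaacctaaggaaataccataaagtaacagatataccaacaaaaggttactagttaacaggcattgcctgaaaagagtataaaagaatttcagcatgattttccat
CD44: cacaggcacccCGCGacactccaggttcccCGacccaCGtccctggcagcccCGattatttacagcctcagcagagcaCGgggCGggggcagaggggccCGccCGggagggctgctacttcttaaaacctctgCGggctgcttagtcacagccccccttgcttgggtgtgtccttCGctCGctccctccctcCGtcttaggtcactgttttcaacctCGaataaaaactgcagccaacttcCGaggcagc
NKD2: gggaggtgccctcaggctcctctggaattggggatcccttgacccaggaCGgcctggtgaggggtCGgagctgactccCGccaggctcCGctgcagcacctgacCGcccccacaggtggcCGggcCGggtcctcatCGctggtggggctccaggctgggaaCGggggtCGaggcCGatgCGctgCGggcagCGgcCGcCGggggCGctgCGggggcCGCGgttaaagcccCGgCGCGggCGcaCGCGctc
SCD: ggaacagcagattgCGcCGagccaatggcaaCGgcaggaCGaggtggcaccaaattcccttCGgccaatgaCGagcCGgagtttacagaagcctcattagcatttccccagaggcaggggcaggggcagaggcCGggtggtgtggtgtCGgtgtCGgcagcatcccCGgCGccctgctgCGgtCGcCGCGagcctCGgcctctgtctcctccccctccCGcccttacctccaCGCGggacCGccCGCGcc

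Of all 8653 CpG-rich windows, 7205 (83.3%) belonged to expressed genes. The share was similar for the genes described below. Among the genes of the lists and the homeobox genes that the study names, 323 had a CpG-rich window, and 55 of these were not expressed. They include FBP1, MET, ZEB1, BAX and the ligand genes WNT1 and WNT3A, and 19 of them had 3 counts or fewer in the 3 libraries together. DNA methylation was not measured in these files. A search for CTTTGAT on both strands, the core letters bound by TCF and LEF factors, found it in 1.71% of all windows and in 2 of the 14 windows of beta-catenin targets, those of SP5 and LECT2, neither of which was expressed. TATAAA on both strands was found in 9.22% of all windows, in 21.3% of those of genes with no count, and in 5.87%, 4.32% and 6.16% of those of expressed genes with means under 10, from 10 to 100, and from 100 TPM up. RefSeq and the annotation of the files did not always start a gene at the same base: 79.8% of the starts lay within 500 bases of each other, and the window of AFP ends at the RefSeq start, which lies inside the gene as the count table draws it. CDH1, AXIN2, A2M and KRT18 are not in the table of windows.

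The hepatocyte program was split by layer. Of 24 hepatocyte transcription factors 13 were expressed (54.2%, beside 59.9% of all nuclear protein-coding genes), but the core of the circuit was not among them. HNF4A, the nuclear receptor that heads it, had no count in any library, and FOXA2 likewise. FOXA1, the forkhead factor that opens liver enhancers in the embryo, was at 26.4, 25.9 and 23.7 TPM, and its libraries lay close together. FOXA3 was lower, at 3.44, 2.56 and 1.96 TPM. GATA4, a factor of early endoderm and heart, was at 22.8, 20.96 and 23.1 TPM, and HHEX, a homeobox factor of the liver bud, at 17.8, 14.6 and 16.5 TPM. CEBPA and CEBPB, leucine zipper factors of differentiated liver and of the acute phase, were far apart, at 16.3, 15.4 and 21.96 TPM and at 357, 331 and 425 TPM. CEBPA shares 43.9% of its exon bases with another gene, so that part of its read pairs may not have been counted. Of the nuclear receptors, NR1H4 and NR1I2, which sense bile acids and drugs, had no count, and the lipid sensors PPARA, NR1H3 and RXRA were at 7.61, 7.13 and 4.67 TPM.

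Plasma proteins were nearly silent. Of 40 genes 6 were expressed, 14 had no count in any library, and the median was 0.0186 TPM, against 6.57 TPM over all nuclear protein-coding genes. The summed level of the list was 137 to 154 TPM. SERPING1, the inhibitor of the first complement component, was at 49.1, 45.5 and 55.1 TPM. F10, SERPINF1 and APOE were expressed at 2.01, 2.33 and 1.63 TPM. TTR and SERPINA1 had no count, and APOA1 was at 0.335, 0.109 and 0.0944 TPM. A2M and SERPING1 are also made by cells outside the liver.

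Liver metabolism was kept only in part. None of 12 drug and bile acid enzymes and none of 8 hepatocyte transporters was expressed, and the summed levels of these lists did not pass 1.09 and 0.900 TPM in any library. CYP3A4 was at 0.188, 0.552 and 0 TPM, and CYP1A2, SLCO1B1 and SLCO1B3 had no count. Of the urea cycle, ASS1 and ASL were expressed, at 36.6, 40.3 and 44.8 TPM and at 9.02, 9.71 and 8.91 TPM. CPS1, the mitochondrial enzyme that starts the cycle, was at 1.34, 1.53 and 0.903 TPM and missed the limit in vector control 3 alone, and OTC had no count. Of gluconeogenesis and glycogen, PCK2 and PYGL, the mitochondrial phosphoenolpyruvate carboxykinase and the liver glycogen phosphorylase, were at 365, 361 and 421 TPM and at 105, 121 and 121 TPM. The liver-type enzymes G6PC, PCK1, FBP1 and GYS2 had no count, but 85.3% of the exon bases of GYS2 are shared with other genes, where read pairs were not counted. FAH, the last enzyme of tyrosine breakdown, was at 20.3, 19.7 and 22.9 TPM, while TAT, its first, was at 0.0901 TPM on average.

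**Figure D2:**
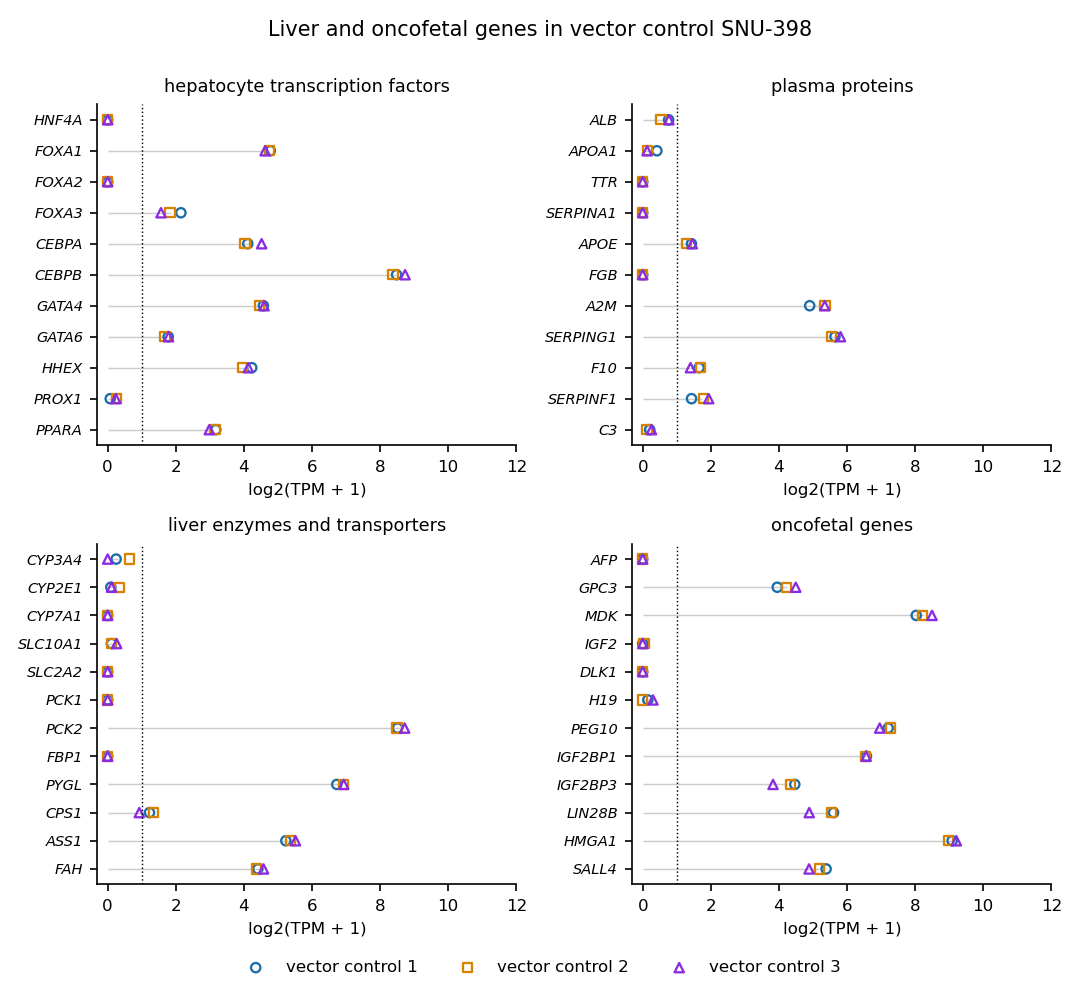
Level of liver and oncofetal genes as log2(TPM + 1) (horizontal axis), one mark per vector control library, grey lines up to the log2 of the mean TPM + 1 and a dotted line at 1 TPM. The marks of HNF4A, FOXA2, TTR, SERPINA1 and AFP lie at 0 in every library, whereas FOXA1, CEBPB, A2M, PCK2, MDK and HMGA1 lie above 4.

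Pairs of related genes, one linked with adult liver and one with other or fetal tissue, were mostly represented by the second of them among 12 pairs. PKM, the muscle and tumour pyruvate kinase, was at 418 ± 51.3 TPM (SD, n = 3), and the liver form PKLR had 1, 0 and 0 counts. HK2, a hexokinase of growing cells, was at 69.8 ± 7.17 TPM. SLC2A1, the common glucose transporter, was at 25.1 ± 0.494 TPM where the liver transporter SLC2A2 had no count, at least 179-fold lower in each library at a limit of 3 counts per library. MAT2A, the methionine adenosyltransferase of growing cells, was at 415 ± 24.2 TPM and 70.2- to 91.2-fold above MAT1A at 5.04 ± 0.469 TPM. PFKP was at 115 ± 9.98 TPM where FBP1, the enzyme of the opposite step, had no count, at least 385-fold lower by the same limit.

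The remaining pairs were less one-sided. ACSL1, the acyl-CoA synthetase of liver, was at 72.4 ± 1.66 TPM and above ACSL4 at 24.7 ± 7.03 TPM, so that the ratio of ACSL4 to ACSL1 was 0.223 to 0.404. FGFR4, the receptor of the hepatocyte, was at 44.03 ± 4.58 TPM and above FGFR1 at 26.5 ± 0.57 TPM. FABP5 was only at 1.31 ± 0.279 TPM, with FABP1 at 0, 1 and 0 counts, and both ALB and AFP were under 1 TPM in every library. CDH2 was at 9.77 ± 0.793 TPM, 5.86- to 11.8-fold above CDH1. ALDOA, otherwise an abundant enzyme of glycolysis, was listed at 2.45, 3.62 and 4.74 TPM, but 54.7% of its exon bases lie in exons of another gene and read pairs over more than 1 gene were not counted.

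Of 18 oncofetal genes 11 were expressed (61.1%), near the 59.9% of all nuclear protein-coding genes. The 7 others were AFP, IGF2, DLK1, SPINK1, LIN28A, H19 and MEG3, most of them secreted or imprinted. IGF2BP1, IGF2BP2 and IGF2BP3, RNA-binding proteins of the embryo, were at 93.3, 106 and 17.8 TPM on average. LIN28B, which blocks the maturation of let-7 miRNAs, was at 47.7, 45.5 and 28.7 TPM, and LIN28A had no count. HMGA1, an architectural chromatin protein, was at 543, 507 and 591 TPM, the highest of the list. SALL4, a zinc finger factor of stem cells, was at 40.8, 35.6 and 28.6 TPM and was lowest in vector control 3. MDK, a heparin-binding growth factor, was at 261, 297 and 360.1 TPM, and the surface proteoglycan GPC3 at 14.5, 17.6 and 21.5 TPM, both highest in vector control 3. PEG10, a paternally expressed gene derived from a retrotransposon, was at 147, 153 and 124 TPM. IGF2 had 1 count in all, H19 was at 0.114 TPM and DLK1 had no count, while 72.1% of the exon bases of IGF2 are shared with other genes.

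Of 19 markers used for liver cancer stem cells 6 were expressed, 2 of them among the 10 surface markers. PROM1, CD44 and THY1 were at or under 0.145 TPM on average. EPCAM was expressed at 5.83, 4.36 and 3.60 TPM, and CD24, a mucin-like surface protein, at 19.9, 19.6 and 19.9 TPM. ALDH1A1, the retinaldehyde dehydrogenase behind the ALDEFLUOR assay, was at 558, 562 and 457 TPM, rank 120. SOX4 and SOX12, related SOX factors of progenitor cells, were at 252 and 137 TPM, whereas SOX2 and NANOG, factors of pluripotency, were at 0.285 TPM and at no count. Cancer testis antigens were off except for PRAME, at 125, 128 and 137 TPM, and GAGE1, at 17.2, 20.4 and 23.04 TPM. None of 10 MAGE genes was expressed, with 6 at no count. Genes of the GAGE and MAGE families are near-identical copies and reads that map to several places were not counted, so that their levels are uncertain.

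Most epithelial genes were off, and the simple epithelial keratins were at or next to 0. Of 29 epithelial genes 9 were expressed (31.0%). The simple epithelial keratins KRT8, KRT18, KRT19 and KRT7, of which KRT8 and KRT18 are the filament pair of hepatocytes, had 1 count in all, from KRT8 in vector control 3. As a limit, 3 counts in each library would be 0.0653 TPM on average for KRT8 and 0.146 TPM for KRT18. KRT18 has many processed copies in the genome, and reads shared with them were not counted. Of the splicing and transcription factors of epithelia, ESRP1, ESRP2 and OVOL1 were under 1 TPM on average, GRHL2 had no count, and GRHL1 alone was expressed, at 7.88, 7.42 and 5.56 TPM.

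Of the 14 adhesion and junction genes among them 8 were expressed (57.1%), near the 59.9% of all nuclear protein-coding genes. Junction genes were not uniformly low. CLDN1 and CLDN3, tight junction claudins, were at 0.0728 and 0.123 TPM, and CLDN4 at 1.45, 1.46 and 1.17 TPM. TJP1, the scaffold of tight junctions that other cells also use, was at 113, 98.98 and 74.2 TPM, and OCLN, its transmembrane partner, at 24.4, 19.004 and 15.2 TPM. DSP, the desmosomal plakin, was at 15.5, 14.8 and 10.9 TPM, and F11R, a junctional adhesion molecule, at 15.3, 13.9 and 17.8 TPM. TJP1, OCLN and DSP were each lowest in vector control 3 and F11R highest.

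Of 34 mesenchymal genes 18 were expressed (52.9%, beside 59.9% of all nuclear protein-coding genes), with a summed level of 2220 to 2407 TPM. VIM and LUM held most of it. LUM, a small proteoglycan that binds collagen fibrils, was at 784, 738 and 437 TPM, rank 83, and lowest in vector control 3. COL3A1 and COL5A2, fibrillar collagens, were at 341, 351 and 378 TPM and at 109, 106 and 95.7 TPM. The fibrillar collagens that usually accompany them were far lower, with COL1A1 at 11.3, 12.6 and 10.8 TPM and COL1A2 at 0.75, 0.777 and 0.969 TPM. FN1, fibronectin, was at 36.4, 33.4 and 33.1 TPM, and SPARC, a matricellular protein of fibroblasts, at 0.651, 0.805 and 0.376 TPM. COL3A1 was far above both chains of type I collagen in each library.

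Among surface genes, AXL, a receptor kinase linked with EMT, was at 54.4, 47.02 and 49.9 TPM, ITGA5, the fibronectin receptor chain, at 33.7, 37.5 and 44.9 TPM, and FAP, a membrane protease of activated fibroblasts, at 17.9, 22.4 and 13.2 TPM. CDH2, the cadherin that replaces CDH1 in EMT, was at 9.47, 9.18 and 10.7 TPM. CDH11, THY1 and CD44 were under 1 TPM. Of the cytoskeletal genes, TPM2, CALD1 and ACTA2 were at 30.6, 28.1 and 25.1 TPM, while the contractile genes MYL9 and CNN1 were at 0.202 and 0.16 TPM.

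Of 13 transcription factors of EMT 10 were expressed, and TWIST1 led. This basic helix-loop-helix factor was at 278, 266 and 280.3 TPM, rank 331, and its relative TWIST2 at 33.7, 34.8 and 34.4 TPM. TCF3, which pairs with both, was at 90.8, 93.5 and 103 TPM. ZEB2, a zinc finger repressor of CDH1, was at 33.3, 33.4 and 20.1 TPM, while its relative ZEB1 was at 0.625, 0.324 and 0.202 TPM. SNAI1 and SNAI2, the snail repressors, were low at 3.82, 1.83 and 3.47 TPM and 4.12, 3.47 and 2.62 TPM. The order TWIST1, TCF3, TWIST2, ZEB2 held in each library, but TWIST2 and ZEB2 did not differ beyond their spread in the first and second libraries.

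Of 20 matrix proteases and inhibitors 12 were expressed (60%), again near the 59.9% of all nuclear protein-coding genes. MMP1 and MMP10, a collagenase and a stromelysin, were at 13.96, 13.2 and 13.8 TPM and 24.1, 19.3 and 19.6 TPM. The gelatinase MMP2 was at 1.25, 1.69 and 2.17 TPM and MMP3 under 1 TPM. The inhibitors TIMP2 and TIMP3 stood above them, at 52.9, 50.2 and 60.4 TPM and 76.7, 86.1 and 96.5 TPM. The related inhibitors TIMP1 and TIMP4 were below MMP1 and MMP10, at 5.51 and 0.174 TPM on average. PLAU, a plasminogen activator, was at 0.324, 0.792 and 0.547 TPM.

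**Figure D3:**
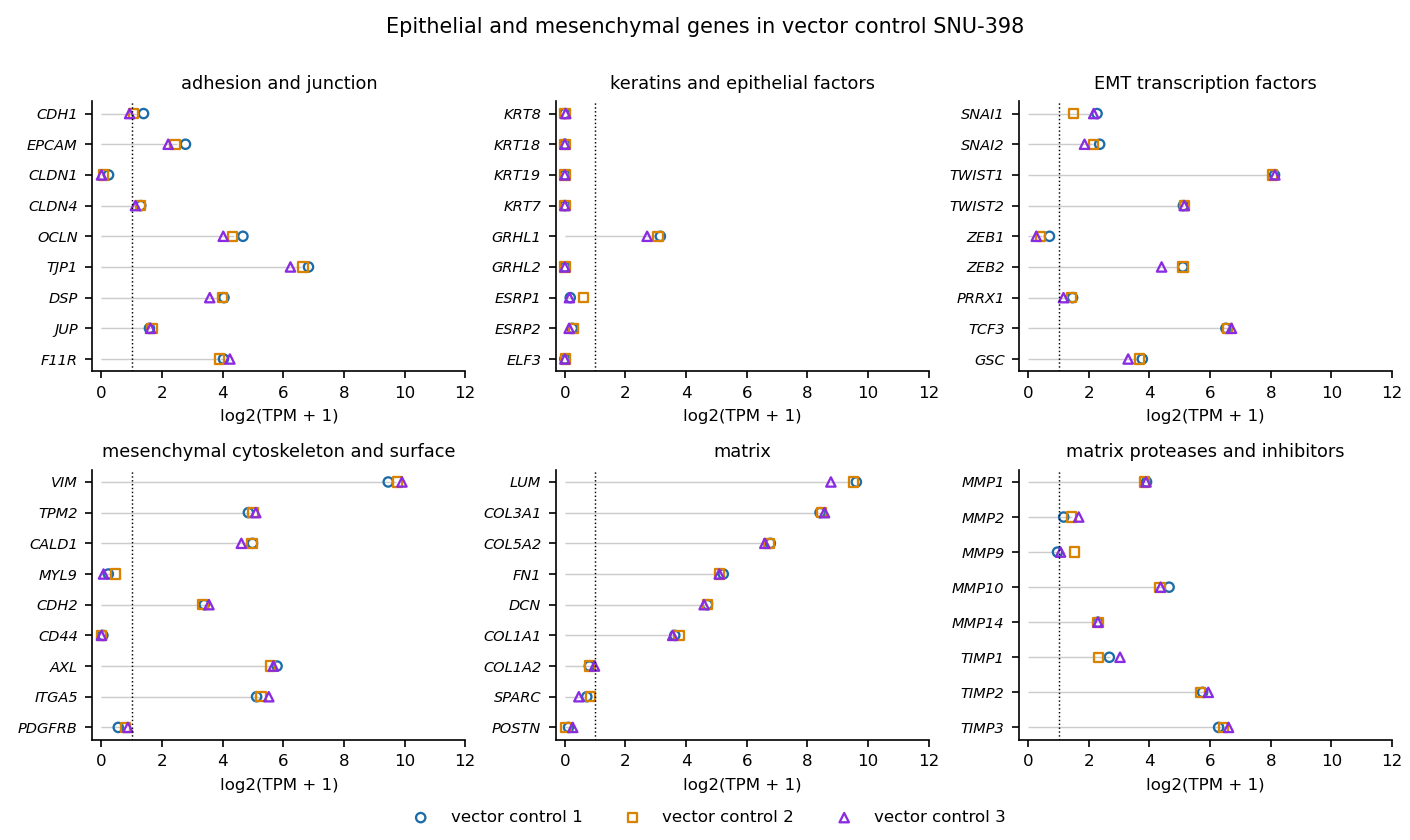
Level of epithelial and mesenchymal genes as log2(TPM + 1) (horizontal axis), one mark per vector control library, grey lines up to the log2 of the mean TPM + 1 and a dotted line at 1 TPM. The 4 keratins lie at or next to 0, CDH1 straddles the dotted line, TWIST1 lies above 8 and VIM above 9 in every library, and ZEB1, SPARC and CD44 lie left of the dotted line.

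Of 51 genes of the WNT pathway 38 were expressed (74.5%, beside 59.9% of all nuclear protein-coding genes). In this pathway WNT proteins bind frizzled receptors and LRP5 or LRP6, which stops the AXIN, APC and GSK3 complex from marking beta-catenin for destruction, and beta-catenin then acts with TCF and LEF factors. All 10 cytoplasmic components and all 7 nuclear factors of the lists were expressed, as were 13 of 15 receptors. Of 19 ligands 8 were expressed (42.1%), below the share of all nuclear protein-coding genes. WNT10B was the highest ligand at 36.3, 37.2 and 44.4 TPM, followed by WNT3 at 9.47, 11.5 and 9.61 TPM and WNT5A at 7.38, 5.87 and 5.52 TPM. WNT1 and WNT2, the first as listed, were at 0.232 TPM and at no count. The receptors FZD2, FZD7 and FZD6 were at 37.7, 38.9 and 38.9 TPM and LRP5 at 33.2 TPM. CTNNB1, which encodes beta-catenin, was at 116, 111 and 105 TPM. APC was at 14.96, 14.6 and 6.99 TPM, AXIN1 at 24.1, 23.5 and 26.6 TPM and GSK3A at 67.7, 62.003 and 69.7 TPM. APC was lowest in vector control 3.

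AXIN2 stood far above AXIN1 in each library. LEF1, the nuclear partner that is itself a target in many cells, was at 169, 156 and 162 TPM, rank 710, and TCF7, TCF7L1 and TCF7L2 were at 31.9, 29.4 and 26.3 TPM. NKD1, NKD2 and NOTUM, secreted or cytoplasmic inhibitors induced by the pathway, were at 6.57, 6.55 and 6.01 TPM, at 30.1, 32.04 and 32.7 TPM and at 14.8, 13.7 and 15.8 TPM. ZNRF3, the ligase that removes frizzled receptors, was at 26.8, 26.7 and 28.4 TPM. TNFRSF19 was at 69.6, 70.3 and 55.9 TPM, MYC at 166, 159 and 188 TPM and CCND1 at 192, 173 and 179 TPM. MYC and CCND1 also answer to many other signals.

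Of 23 beta-catenin targets 15 were expressed (65.2%), near the 59.9% of all nuclear protein-coding genes. LGR5, the receptor that marks stem cells, had 1 count in all, SP5 2 counts, and DKK1 crossed 1 TPM at 0.931, 2.45 and 2.12 TPM. GLUL, the glutamine synthetase of hepatocytes around the central vein, was at 23.1, 19.99 and 25.7 TPM, and OAT, the ornithine aminotransferase of the same zone, at 125, 121 and 108 TPM. CYP2E1, a further gene of that zone, was at 0.142 TPM. AXIN2, LEF1, NKD2 and ZNRF3 were thus expressed beside a silent LGR5 and SP5. Protein and mutation of beta-catenin were not measured in these files.

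Receptors of growth factors were expressed for 20 of 28 genes and their ligands for 12 of 28. EGFR was at 3.97, 4.41 and 4.02 TPM, rank 10600, and ERBB2, ERBB3 and ERBB4 at 15.4, 3.19 and 2.50 TPM. The EGF-type ligands EGF, TGFA, AREG and EREG were each under 1 TPM in every library, HBEGF was at 5.37, 3.07 and 5.66 TPM, and NRG2, a ligand of ERBB3 and ERBB4, was the highest at 17.8, 14.9 and 15.8 TPM. FGFR4 was at 41.3, 41.4 and 49.3 TPM. Its liver ligand FGF19 crossed 1 TPM at 0.699, 1.97 and 2.36 TPM, and KLB, the coreceptor that FGF19 needs, was at 0.212, 0.545 and 0.0224 TPM. MET, the receptor of hepatocyte growth factor, was at 0.682, 0.495 and 0.502 TPM and its ligand HGF had 1 library with counts, at 0.0217 TPM on average.

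The other growth factor receptors ranged from no count to the level of DDR2. DDR2, a kinase that binds fibrillar collagen, was at 202, 193 and 133 TPM and lowest in vector control 3. IGF2R, which clears IGF2, was at 115, 107 and 105 TPM, and INSR and IGF1R were at 7.19 and 22.9 TPM, with IGF1 at no count. VEGFB and VEGFC, vascular growth factors, were at 206, 200.3 and 224 TPM and at 129, 108 and 115 TPM, whereas the receptor KDR had no count. PDGFC was at 74.9, 68.2 and 55.8 TPM and PDGFA at 13.9, 13.1 and 17.03 TPM, with the receptors PDGFRA and PDGFRB under 1 TPM in each library. ANGPT1, a ligand of the endothelial receptor TEK, was at 56.9, 50.5 and 31.1 TPM.

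The RAS and ERK pathway downstream of these receptors was expressed throughout, 26 of 26. The GTPases NRAS and HRAS were at 167, 146 and 105 TPM and at 49.2, 42.1 and 54.2 TPM, and NRAS was lowest in vector control 3. MAP2K1 and MAP2K2, the MEK kinases, were at 73.5, 61.2 and 71.01 TPM and at 158, 145 and 176 TPM. MAPK3, an ERK kinase, was at 68.97, 58.7 and 74.3 TPM. All 16 genes of its feedback and output were expressed. SPRY2, a feedback inhibitor, was at 216, 234 and 240.3 TPM, and SPRED1 and SPRED2, inhibitors of RAS, at 167 and 130.0 TPM. EGR1, an immediate early factor, was at 356, 257 and 269 TPM, while the ERK phosphatases DUSP4, DUSP5 and DUSP6 were at 3.76, 5.01 and 49.7 TPM. Phosphorylation was not measured in these files.

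**Figure D4:**
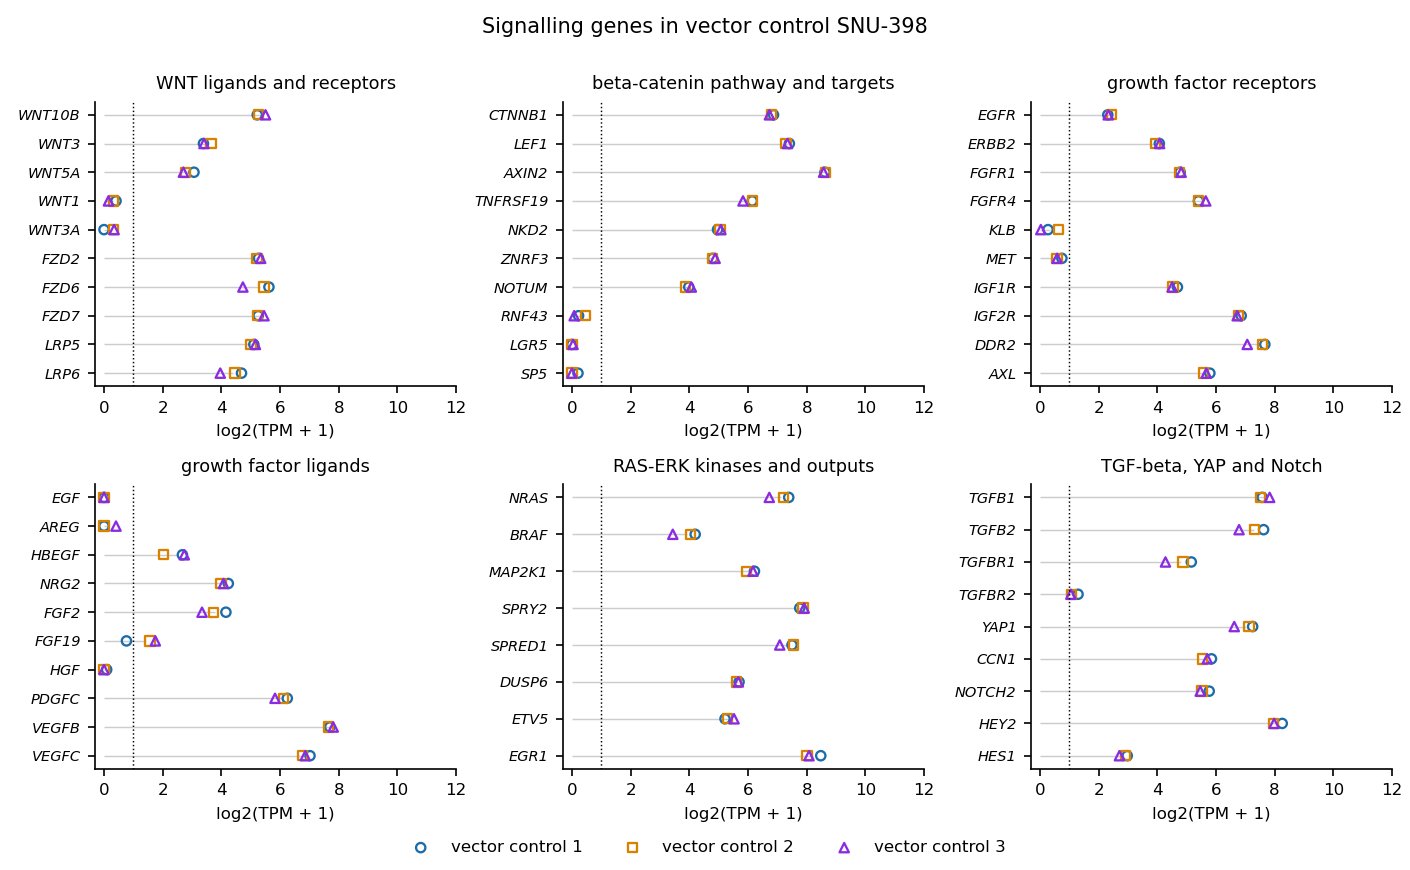
Level of signalling genes as log2(TPM + 1) (horizontal axis), one mark per vector control library, grey lines up to the log2 of the mean TPM + 1 and a dotted line at 1 TPM. AXIN2, LEF1, EGR1 and HEY2 lie above 7 in every library, EGFR lies between 2 and 3, and LGR5, SP5, KLB, MET, EGF and HGF lie left of the dotted line.

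Of the TGF-beta pathway 29 of 34 genes were expressed. TGFB1 and TGFB2 were at 189.9, 184 and 227 TPM and at 196, 158 and 109 TPM, with vector control 3 highest for the first and lowest for the second. TGFBR1 was at 34.8, 28.4 and 18.4 TPM, and TGFBR2, the receptor that binds the ligand first, only at 1.46, 1.11 and 1.08 TPM. BMP7 was at 47.3, 47.4 and 53.9 TPM and the BMP targets ID1, ID2 and ID3 at 26.5, 109 and 52.3 TPM. GDF15, a stress hormone of the same family, was at 252, 219 and 264 TPM. SMAD1, SMAD2, SMAD3 and SMAD4 were between 12.7 and 18.3 TPM on average.

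All 12 YAP and TEAD factors and kinases and 7 of 8 targets were expressed. YAP1 was at 151, 138 and 97.6 TPM, TEAD4 at 60.2, 60.04 and 74.4 TPM and WWTR1 at 26.3, 23.8 and 19.5 TPM. Of the targets, F3, the tissue factor of coagulation, was the highest at 130.0, 126 and 106 TPM, CCN1 was at 56.6, 45.8 and 51.1 TPM and CCN2 at 10.3, 9.33 and 7.07 TPM, and ANKRD1 at 1.29, 0.787 and 0.679 TPM missed the limit. Of the Notch pathway 13 of 15 genes were expressed. NOTCH2 and NOTCH3 were at 47.3 and 34.2 TPM and the ligand JAG2 at 34.6 TPM. Among targets, HEY2 at 305, 249 and 252 TPM and HES4 at 106, 75.6 and 94.01 TPM stood above HES1 at 6.87, 6.58 and 5.55 TPM.

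All 41 proliferation genes were expressed, with a median of 108 TPM and a summed level of 5656 to 5767 TPM. PCNA, the clamp of the replication fork, was at 438, 513 and 460.5 TPM, and MCM2, MCM3, MCM4 and MCM5 of the replicative helicase were between 58.7 and 266 TPM. MKI67, the antigen counted in pathology, was at 125, 117 and 73.2 TPM, TOP2A at 288, 243 and 142 TPM and CDK1 at 240.2, 192 and 129 TPM, each lowest in vector control 3. The GC content was 36.96% for CDK1, 39.1% for TOP2A and 48.3% for MKI67. TPX2, BIRC5 and UBE2C, further mitotic genes, were at 379, 351 and 339 TPM, at 304, 287 and 338 TPM and at 216, 201 and 237 TPM. CCND1, CCND2 and CCND3 were at 181, 115 and 20.7 TPM, and CDK4 and CDK6, their kinases, at 215, 194 and 245 TPM and 255, 228 and 149 TPM. CDK4 was highest and CDK6 lowest in vector control 3, and 44.2% of the exon bases of CDK4 are shared with another gene.

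The inhibitors of the cell cycle were expressed too, 10 of 10 genes with the RB family. CDKN1B, an inhibitor of cyclin-dependent kinases, was the highest of them at 124, 107 and 99.7 TPM. CDKN2A, which is silenced or deleted in many tumours, was at 68.4, 63.8 and 65.7 TPM, and its neighbour CDKN2B at 88.3, 70.6 and 73.1 TPM. RB1, which lies downstream of CDKN2A, was at 51.9, 44.9 and 29.2 TPM. CDKN1A, a further inhibitor of these kinases, was at 14.5, 14.1 and 15.3 TPM. BAX, a pore-forming protein of apoptosis, had 0, 1 and 7 counts although its exons overlap no other gene. Of the BCL2 family 12 of 16 genes were expressed. BAK1, which forms the same pore, was at 62.6, 66.1 and 77.8 TPM. MCL1, the protective protein, was at 315, 278 and 244 TPM, and BCL2 at 3.97, 3.42 and 3.19 TPM. TERT, the catalytic subunit of telomerase, was at 21.3, 23.1 and 20.3 TPM, and the 4 other subunits of the list were between 58.4 and 641 TPM.

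Genes of lipid synthesis were high, 19 of 20 expressed with a median of 128 TPM. After SCD, FASN, the fatty acid synthase, was at 441, 619 and 704 TPM and lowest in vector control 1, and ACLY and ACACA, which supply it, were at 261 and 78.4 TPM. SREBF1, the factor that drives these genes, was at 221, 217 and 249 TPM. Of cholesterol synthesis, FDPS, DHCR7 and SQLE were at 199, 179.6 and 137 TPM on average.

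Glycolysis was expressed in all 13 genes, led by GAPDH at 1583, 1726 and 1993 TPM and ENO1 at 850.1, 851 and 1002 TPM. LDHA was at 230.2, 283 and 311 TPM and PKM at 384, 392.2 and 477 TPM. Of 13 genes of transport and hypoxia 10 were expressed, HIF1A at 227, 194 and 126 TPM and SLC2A3 at 75.2, 72.3 and 75.1 TPM being the highest, while SLC16A3, the lactate exporter, was at 0.389, 0.364 and 0.359 TPM. Carbonic anhydrase CA9 had 1 library with counts.

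The amino acid response stood out among stress genes, with all 10 of its genes at 100 TPM or more on average. ATF4, the factor translated when amino acids run short, was at 953, 872 and 993 TPM, and its target TRIB3, a pseudokinase, at 1002, 986 and 1191 TPM, rank 29. PSAT1 and PHGDH of serine synthesis were at 849, 992 and 919.9 TPM and 249, 247 and 292 TPM, and ASNS, asparagine synthetase, at 121, 99.7 and 84.8 TPM. SLC3A2, the heavy chain of amino acid transporters, was at 403, 386 and 460.2 TPM. Of the unfolded protein response, HSPA5 and CALR, chaperones of the endoplasmic reticulum, were at 464, 447 and 456 TPM and 459.7, 481 and 594 TPM, and DDIT3 at 408, 331 and 341 TPM. NQO1, a main target of the oxidative stress factor NFE2L2, was nearly silent at 0.0535, 0.315 and 0.362 TPM, while HMOX1 was at 257, 219 and 254 TPM, TXNRD1 at 205, 189.6 and 164 TPM and NFE2L2 itself at 84.6, 89.3 and 54.9 TPM.

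Of 30 interferon and MHC genes 22 were expressed, with all 9 of MHC class I among them. HLA-B and HLA-C were at 188 and 162 TPM and B2M at 168, 146 and 146 TPM, with the caution that the HLA genes resemble one another. The immunoproteasome gene PSMB8 was at 1.64 TPM. Of 14 interferon-stimulated genes 9 were expressed (64.3%), near the 59.9% of all nuclear protein-coding genes. Their median was 4.02 TPM, against 6.57 TPM over all nuclear protein-coding genes, and ISG15 was at 24.4, 28.6 and 32.9 TPM. None of 10 chemokines was expressed, with CXCL8, CXCL1 and CXCL5 at no count, and of 10 cytokines LIF alone passed, at 5.59, 4.91 and 5.24 TPM. CD274, which encodes PD-L1, was at 0.155, 0.455 and 0.752 TPM, and CD276, a relative, at 50.1, 50.03 and 62.2 TPM.

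HOX genes, which set position along the body axis in the embryo, were expressed in 31 of 39 cases, and the clusters differed. The HOXC cluster on chromosome 12 was expressed in all 9 genes, led by HOXC10 at 115, 109.6 and 118 TPM. Of the HOXB cluster on chromosome 17, 9 of 10 were expressed, led by HOXB9 at 139, 145 and 165 TPM, and HOXB1 had no count. Of the HOXD cluster on chromosome 2, the 6 genes from HOXD8 to HOXD13 were expressed, and HOXD1, HOXD3 and HOXD4 were not. HOXD13, at the end of its cluster, was the highest HOX gene at 172, 175 and 189.8 TPM. The HOXA cluster on chromosome 7 was the lowest, 7 of 11. HOXA10, one of the homeobox genes that the study lists, had 0, 0 and 6 counts, and HOXA9 none.

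**Figure D5:**
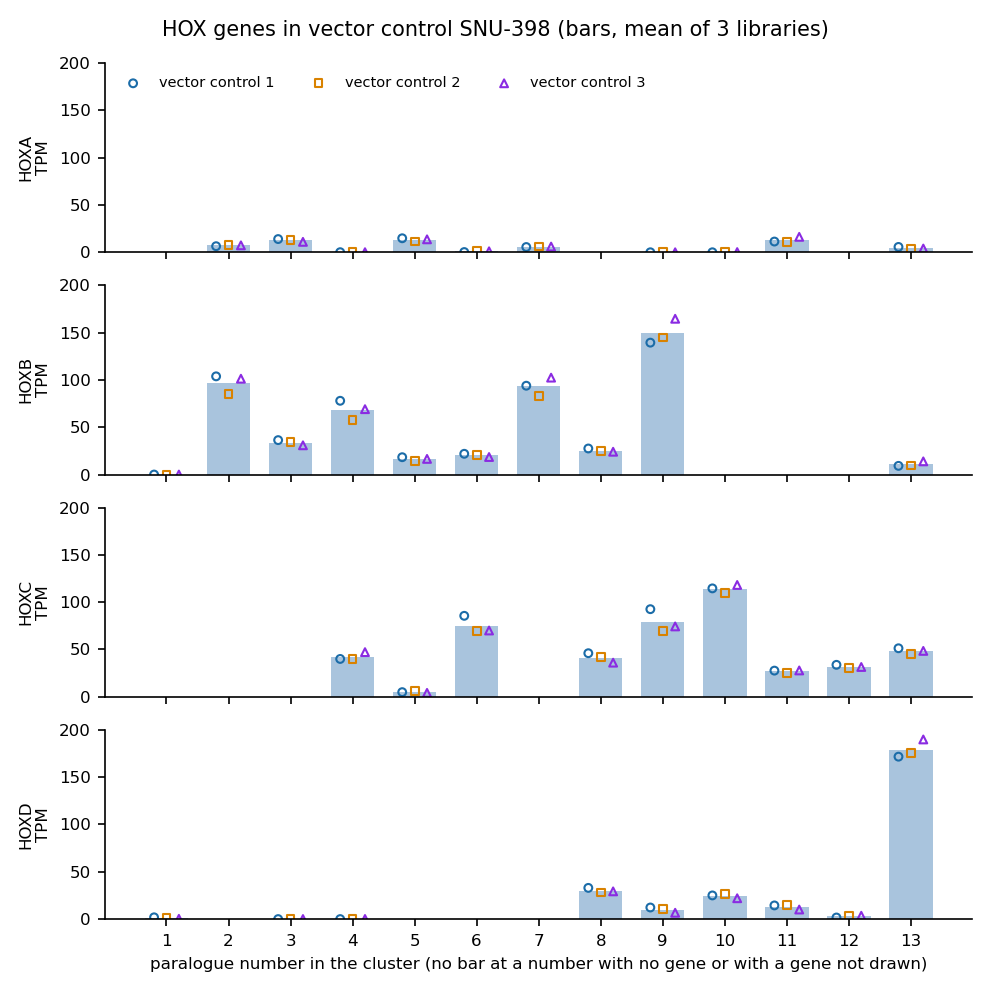
TPM of the HOX genes (vertical axis, linear from 0) by paralogue number (horizontal axis) in the 4 clusters, with bars for the mean of the 3 vector control libraries and 1 mark per library. HOXD13, HOXB9 and HOXC10 are above 100 TPM in every library, HOXD1, HOXD3, HOXD4, HOXA9 and HOXA10 are under 2 TPM, and 1 gene of the HOXA cluster is not drawn.

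HOTAIR, a non-coding RNA made from the HOXC cluster, was at 15.9, 14.6 and 9.97 TPM, and HOTTIP, from the end of the HOXA cluster, at 0.284 TPM. Of 16 cancer-linked long non-coding RNAs 10 were expressed. The abundant nuclear RNAs MALAT1 and NEAT1 were at 131, 135 and 49.8 TPM and 91.7, 89.7 and 49.96 TPM, both lowest in vector control 3. HULC, a non-coding RNA named for its level in liver cancer, was at 0.166 TPM.

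EMX1, a homeobox factor of the developing cortex at chr2:72916260-72936071, was expressed before it was raised. It was at 6.34, 6.52 and 7.69 TPM, from 218, 229 and 313 counts, rank 9840 of 19815, and slightly highest in vector control 3. The counts are per gene and do not part the full-length from the alternative isoform. EMX2, its paralogue, was at 12.7, 10.9 and 6.88 TPM, above EMX1 in the first and second libraries and below it in vector control 3. OTX1 was at 6.55, 6.19 and 7.23 TPM, near EMX1. DLX5 was by far the highest of the other homeobox genes that the study names, at 336, 316 and 344 TPM, rank 249. PITX1, a factor of the hindlimb and pituitary, was at 55.5, 55.6 and 72.3 TPM, and TLX1 had no count.

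Markers of other cell types were looked at to see what else the cells express. None of 8 cholangiocyte markers and none of 10 immune markers was expressed, with summed levels of at most 1.13 and 2.43 TPM in a library, and KRT7, KRT19, CD3E and MS4A1 at no count. Of 10 endothelial markers EGFL7 alone was expressed, at 25.7, 28.5 and 36.9 TPM, and CDH5, TEK and KDR had no count. Of 10 stellate cell markers 5 were expressed, namely COL3A1, RGS5, ACTA2, COL1A1 and HAND2, with a summed level of 420 to 456 TPM. RGS5, a regulator of G proteins in pericytes, was at 29.9, 35.7 and 27.4 TPM, and LRAT, DES and PDGFRB were under 1 TPM. Of 8 neural markers 7 were expressed: ENO2, SLC17A7, GAD1, SYP, TUBB3, RBFOX3 and SNAP25. ENO2, the neuronal enolase, was at 97.3, 90.8 and 94.5 TPM, SLC17A7, a vesicular glutamate transporter, at 18.1, 11.8 and 12.9 TPM, and GAD1, which makes the transmitter GABA, at 13.2, 13.8 and 11.7 TPM. MAP2, the dendritic protein, was at 1.23, 0.911 and 0.717 TPM. The labels name no other cell in the culture.

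Enzymes of DNA methylation were expressed for 11 of 12 genes. The maintenance enzyme DNMT1 was at 73.96, 85.7 and 87.5 TPM and its guide UHRF1 at 106, 121 and 141 TPM, both lowest in vector control 1. DNMT3A and DNMT3B, which set new marks, were at 22.7 and 28.7 TPM, TET1 at 37.5, 32.1 and 21.4 TPM and DNMT3L at no count. All 12 genes of the list of HCC drivers were expressed, from TSC2 at 5.36 TPM to BAP1 at 76.4 TPM. ARID1A, a subunit of the SWI/SNF remodeller, was at 64.4, 60.7 and 52.3 TPM.

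Among 8973 nuclear protein-coding genes with a mean of 10 TPM or more, the spread between libraries was largest for OCLM, a gene of 135 exon bases with 36, 25 and 10 counts. Of the 10 most variable, CENPE, KIF20B and ASPM, genes of the mitotic spindle, were at 38.7, 31.4 and 12.1 TPM, at 48.03, 43.9 and 16.3 TPM and at 62.7, 52.4 and 22.8 TPM. ANKRD12, AKAP9, POTEE, EEA1, TRIP11 and PHIP made up the rest, and all 10 were lowest in vector control 3. Of the 100 most variable genes 97 were lower in vector control 3 than in the mean of the other libraries, and their median GC content was 37.1%, against 47.8% over the 8973. POTEE belongs to a family of near-identical genes, so that its counts are uncertain.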

How the data were processed

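RNA-seq was analysed for the 3 vector control libraries. The authors aligned reads to GRCh38 and deposited counts per gene and log2(TPM + 1) values. The deposited count table carries a featureCounts 2.0.1 header with Ensembl 99, the submitters' processing notes name bcl2fastq 2.1.7, fastp, STAR and featureCounts 2.0.6, and the study's methods name RSEM. Read pairs were counted on exons by gene name, with no strand option in the header, so overlapping and antisense genes cannot be told apart, and pairs over more than 1 gene or place were not counted. TPM were recomputed from the counts and matched the deposited log2 values.

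Expression meant 1 TPM or more in each library, and ranks were over mean TPM of nuclear protein-coding genes. Gene types came from GENCODE 29. XIST and Y-linked genes were left out, and some other genes are not reported here. No groups were compared and no test was run. Scripts were tested on simulated data (Python 3.11.15, pandas 2.3.3, numpy 2.4.6, matplotlib 3.10.9). A share of 0 was limited at 3 counts per library, which covers counting error only. Other thresholds, units, scalings and left-out libraries were tried.

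The 35 gene lists and 12 pairs were chosen with earlier results of these data known. Named genes were the 5 markers, genes the study names, the highest genes, the first 4 and highest 4 of each list's roles, pairs, HOX genes, the 10 most variable genes and expressed markers of other cell types. Chosen after their values were seen were APOE, F10, FOXA2, GYS2, LIN28B, SALL4, CLDN4, CNN1, ZEB1, WNT3A, DKK1, LECT2, GLUL, CYP2E1, KLB, MET, HGF, PDGFRA, PDGFRB, ID1, MCM5, PHGDH, PSMB8, CA9, TET1, TSC2, PLAU, HOTTIP, HULC, the zero-count markers of other cell types, other genes drawn only in the plots, and the gene families of the closing section.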

Additional observations from a re-analysis of the deposited data

How the results depend on the processing

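The number of expressed genes was 16075 and stayed between 14190 and 18659 over thresholds of 0.5 and 2 TPM, a threshold on the mean, counts per library size, a minimum of 10 counts and a scaling over nuclear protein-coding genes, and between 16459 and 17269 when a library was left out. Of 753 listed genes 476 were expressed, and 450 to 499 over the same alternatives. The median SD of log2(TPM + 1) was 0.191, and 0.103 to 0.2 when a library was left out. The lowest of these was the value without vector control 3, so that this library decides it. Scaling over nuclear protein-coding genes raised every level by 1.46 to 1.499 times. This moved 24 of 27 named genes by over 1 SD, while size factors moved none. With 3 libraries, leaving 1 out cannot shift a mean by over 1 SD, so this rule could not show whether a single library mattered. No paired analysis was possible because no groups were compared. Of 277 listed genes that were not expressed, 138 had 3 counts or fewer in the 3 libraries together, and 25 share 20% or more of their exon bases with other genes, where counting limits what can be seen.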

Other observations

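Families of genes that were chosen by symbol after values were seen included developmental factors at high and at low levels. Of 6 DLX homeobox genes 5 were expressed, with DLX5 at 336, 316 and 344 TPM and DLX2 at 303, 265 and 282 TPM. RUNX2, a factor of bone formation, was at 309, 285 and 237 TPM. ZIC1, a zinc finger factor of neural precursors, was at 134, 132 and 145 TPM, and of 49 forkhead genes 25 were expressed (51.0%, beside 59.9% of all nuclear protein-coding genes). NKX2-5, a homeobox factor of the heart, was at 86.7, 86.1 and 107 TPM, and both MSX genes were expressed, MSX2 at 119, 95.6 and 114 TPM. Of 9 PAX genes 3 were expressed (33.3%), and of 19 SOX genes 7 (36.8%), both below the share of all genes.

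Of the structural families, keratins, claudins and collagens were expressed less often than the 59.9% of all nuclear protein-coding genes, and laminins near that share. Of 54 keratins KRT10 alone was expressed, at 22.9, 25.3 and 26.04 TPM, and of 24 claudins 6, led by CLDN12 at 70.8, 66.1 and 47.9 TPM. Of 44 collagens 16 were expressed (36.4%) and of 12 laminins 7 (58.3%), the laminins led by LAMC1 at 119, 111 and 111 TPM. None of 21 glucuronosyltransferases and 13 of 55 cytochromes P450 were expressed. UGT1A3 and UGT1A10 share 80% and 70.7% of their exon bases with other genes, where read pairs were not counted, so that the zeros of the UGT1A genes do not show that they were silent. All 20 cytosolic tRNA synthetases were expressed, with a median of 216 TPM and AARS1 at 810.0, 743 and 853 TPM.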
